A study of Rattus norvegicus with 6 samples.

Results

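Voltage-gated potassium channel subunits were examined in RNA-seq of the rat amygdala after acute ethanol. The members are the pore-forming (alpha) subunits of the Kcna, Kcnb, Kcnc, Kcnd, Kcnf, Kcng, Kcnh, Kcnq, Kcns and Kcnv families, taken by gene symbol with at least 10 counts in at least 3 of the 6 libraries. Of the 38445 genes counted, 40 matched by symbol and 38 reached the minimum. The other 2 were Kcna7, with 5 to 15 counts per library, and Kcna10, with 0 to 2 counts. Both groups were adult male Sprague Dawley rats of wild-type genotype given a single intraperitoneal injection, saline in the control group and ethanol at 1 g/kg in the ethanol group. The amygdala was taken 1 h later. Each library was made from the pooled total RNA of 2 rats, and each group had 6 rats and thus 3 libraries. The p-values measure the spread between these pools.

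These channels open when the membrane depolarizes and let potassium leave the cell, which repolarizes the neuron and sets its threshold, spike width and firing rate. Kcna to Kcnd, Kcnh and Kcnq subunits can form working pores. Kcnf, Kcng, Kcns and Kcnv subunits are silent alone and modify the channels of the Kcnb subunits with which they assemble. In the amygdala, as elsewhere in the forebrain, A-type, delayed-rectifier and M-type currents carried by these families are known to shape how principal cells and interneurons fire.

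The 38 subunit genes lay on 13 chromosomes in Rnor_6.0, the build used for counting, and their summed exon lengths ran from 1578 to 12699 bases. Chromosome 3 held the most, with 6 genes. On chromosome 2, Kcna3 (chr2:209766767-209768344), Kcna2 (chr2:209838607-209852471) and the barely counted Kcna10 (chr2:209920590-209932665) were neighbours on the plus strand. On chromosome 4, Kcna5 (chr4:159077195-159079003), Kcna1 (chr4:159190781-159192526) and Kcna6 (chr4:159253934-159287193) were neighbours on the minus strand. Kcna1, Kcna3, Kcna5 and Kcnf1 were the 4 genes annotated as an unbroken exon. Kcnd2 shared 550 exonic bases on its own strand with Kcnd2l1 and Kcnh4 shared 24 with Rab5c. Reads in such shared stretches were not assigned to either gene, so the values of Kcnd2 and Kcnh4 are uncertain to that extent.

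The 250 bases before the start site were at hand for 24 of the 38 genes, from RefSeq in the GRCr8 build, which is not the counting build. GC boxes (GGGCGG, searched on both strands) were found before 15 of these 24 genes (62.5%), against 32.4% of 27457 rat promoters of the same length. The median GC content was 66.6% for the subunit genes and 52.0% for all promoters. No TATA box (TATAAA) was found in the 24 windows, against 13.1% of all promoters, and no cyclic AMP response element (TGACGTCA), against 1.70%. The matches describe letters in these windows, and the GC boxes overlapped neither of the other motifs because those had no match. Shown here are Kcng2, Kcnq5 and Kcns3, which had the same pairs of highest and lowest libraries, and Kcnh7, whose groups did not overlap. Capitals mark the GC boxes, each sequence reads 5′ to 3′ towards the gene, and all of them are on the minus strand. Kcng2 lies at chr18:76083689-76083938, Kcnq5 at chr9:31891282-31891531, Kcns3 at chr6:39584106-39584355 and Kcnh7 at chr3:68230672-68230921.
Kcng2: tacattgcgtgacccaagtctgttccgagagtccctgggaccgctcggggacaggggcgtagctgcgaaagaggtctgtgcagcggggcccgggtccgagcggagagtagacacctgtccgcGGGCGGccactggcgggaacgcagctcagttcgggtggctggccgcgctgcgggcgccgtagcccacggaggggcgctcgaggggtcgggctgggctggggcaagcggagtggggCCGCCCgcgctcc
Kcnq5: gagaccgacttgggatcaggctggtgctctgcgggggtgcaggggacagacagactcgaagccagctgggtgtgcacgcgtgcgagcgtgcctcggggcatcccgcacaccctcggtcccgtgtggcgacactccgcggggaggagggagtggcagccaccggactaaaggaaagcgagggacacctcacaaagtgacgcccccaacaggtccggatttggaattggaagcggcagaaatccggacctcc
Kcns3: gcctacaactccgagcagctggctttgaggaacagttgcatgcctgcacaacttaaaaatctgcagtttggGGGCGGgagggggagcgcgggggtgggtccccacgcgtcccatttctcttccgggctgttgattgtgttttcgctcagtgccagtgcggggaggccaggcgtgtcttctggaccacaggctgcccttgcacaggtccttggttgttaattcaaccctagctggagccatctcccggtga
Kcnh7: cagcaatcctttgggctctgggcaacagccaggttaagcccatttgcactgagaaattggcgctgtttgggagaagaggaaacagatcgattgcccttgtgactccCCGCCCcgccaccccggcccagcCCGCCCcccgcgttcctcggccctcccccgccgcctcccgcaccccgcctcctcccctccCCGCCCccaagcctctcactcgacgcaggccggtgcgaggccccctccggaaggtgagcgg
Kcng2, Kcnq5 and Kcns3 held 2, 0 and 1 GC boxes, and Kcnh7 held 3.

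Library depth ran from 62576504 to 70755739 assigned reads, and 3 counts corresponded to 0.0424 to 0.0479 CPM, the reads of a gene scaled to the size of the library. All CPM values of genes and lists are also scaled between libraries by the trimmed mean of M values (TMM), whose factors lay between 0.976 and 1.01. Markers of several cell types differed between libraries, and their lists were chosen with earlier results known. The summed level of 7 markers of cortical-type glutamatergic neurons ran from 587 to 982 CPM in control and from 617 to 1112 CPM in ethanol libraries, and that of 6 oligodendrocyte markers from 3549 to 8379 and from 4355 to 9727 CPM. Striatal-type GABA neuron markers (7 genes) summed to 174 to 257 and 193 to 333 CPM, so markers of both neuron types were present in every library, and no list specific to the amygdala was used. Astrocyte sums were 4006 to 4730 and 4097 to 5321 CPM, microglia 219 to 243 and 221 to 259, endothelial and mural cells 206 to 224 and 202 to 231, and parvalbumin interneurons 431 to 558 and 441 to 496. Of 8 markers of motile cilia and ependyma, 6 were lower in ethanol at an unadjusted p below 0.05 by edgeR. Of all genes tested, 2.58% were. The sum of the 8 markers was 128 to 172 CPM in control and 112 to 118 CPM in ethanol libraries.

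The amygdala expressed subunits of every family. Levels of different genes are compared as CPM per kb of exon, and 34 of the 38 genes are described one by one. Kcnc4, a fast A-type subunit, had the highest mean of these 34, with 24.7, 34.9 and 29.7 CPM per kb in control and 30.3, 33.8 and 25.5 in ethanol libraries. Kcnf1, a silent subunit, followed with a mean of 25.0 CPM per kb, and Kcnd2, the dendritic A-type subunit, with 23.8. Their libraries ran from 21.7 to 28.1 and from 22.3 to 25.9, so these neighbours were not separated beyond their spread. Kcnd3 (20.6 CPM per kb), Kcnh3 (20.2), Kcna6 (19.8) and Kcnc1 (18.8) came next, and their libraries also overlapped. This order rests on the annotated exon lengths, such as 2841 bases for Kcnc4 and 12678 for Kcna2. Without the division, the means of Kcna2 (182 CPM), Kcnd3 (141) and Kcna6 (132), among others, exceeded that of Kcnc4 (84.7).

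**Figure D1:**
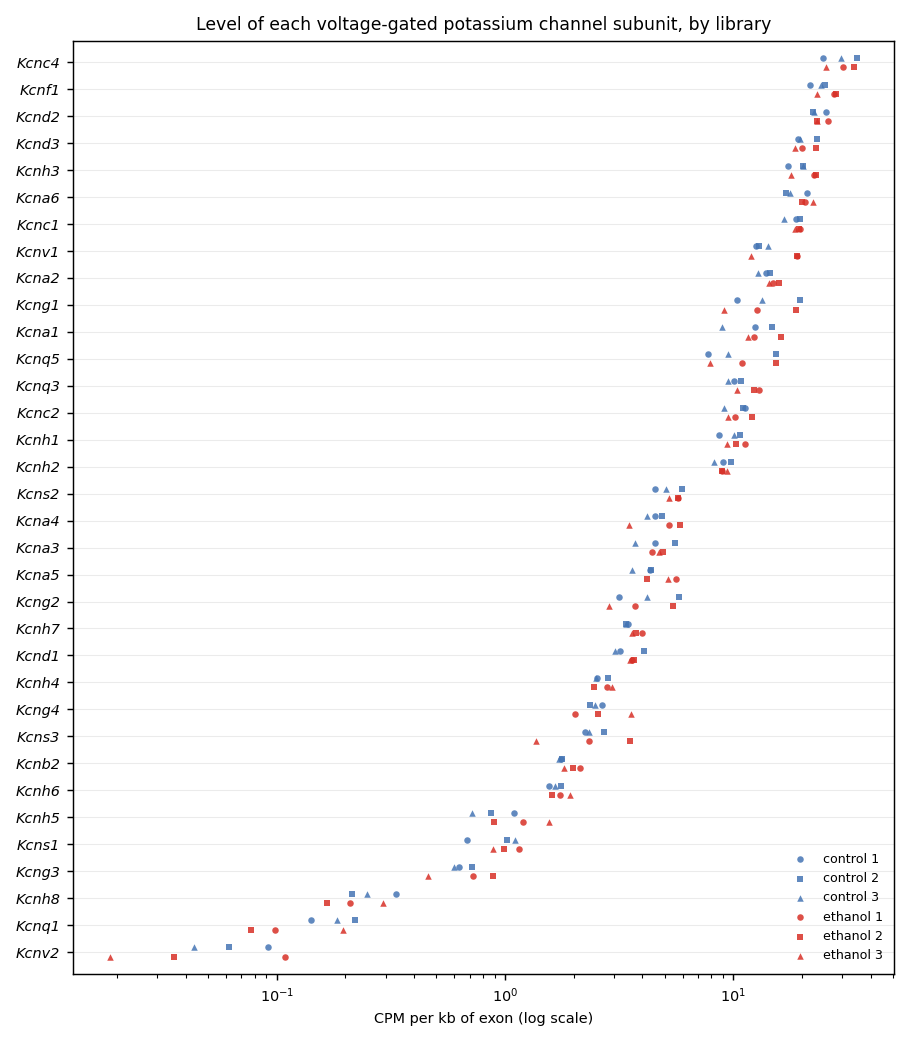
Level of each of the 34 subunits described one by one in CPM per kb of exon (log axis), with each point a library, blue for control and red for ethanol, and the marker shape giving the replicate number. Kcnc4 stands at the top at 24.7 to 34.9 CPM per kb, while Kcnh8, Kcnq1 and Kcnv2 sit at the bottom with means of 0.244, 0.152 and 0.0601.

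A middle band of 9 subunits had means between 9.03 and 14.95 CPM per kb. In falling order these were Kcnv1, Kcna2, Kcng1, Kcna1, Kcnq5, Kcnq3, Kcnc2, Kcnh1 and Kcnh2. Kcns2 (5.38), Kcna4 (4.69), Kcna3 (4.65), Kcna5 (4.54), Kcng2 (4.18), Kcnh7 (3.60), Kcnd1 (3.51), Kcnh4 (2.68), Kcng4 (2.61), Kcns3 (2.42), Kcnb2 (1.86), Kcnh6 (1.71) and Kcnh5 (1.06) lay below it. Under 1 CPM per kb were Kcns1 (0.975), Kcng3 (0.669), Kcnh8, Kcnq1 and Kcnv2. Neighbouring genes did not have like levels. Within the chromosome 4 cluster Kcna6 had a mean of 19.8 CPM per kb, Kcna1 12.7 and Kcna5 4.54, and within the chromosome 2 cluster Kcna2 had 14.4 and Kcna3 4.65.

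Summed over the 38 genes, the level was 374, 441 and 382 CPM per kb in control and 431, 457 and 375 in ethanol libraries, so the groups overlapped. The 5 Kcnq genes made up 20.5% of this sum and the 4 Kcnc genes 19.5%. The 6 Kcna genes followed with 14.8%, the 8 Kcnh genes with 11.9%, the 3 Kcnd genes with 11.7% and Kcnf1 with 6.10%. The 4 Kcng genes held 5.19%, the 2 Kcnb genes 4.45%, the 2 Kcnv genes 3.64% and the 3 Kcns genes 2.13%. Without division by exon length, Kcnf1 held 3.04%, the Kcnv genes 1.57% and the Kcns genes 0.815%, and the Kcna genes (17.3%) came above the Kcnc genes (17.1%). The Kcnq share was 20.7% ± 0.953 in control and 20.4% ± 1.14 in ethanol libraries, and the Kcnc share 19.9% ± 0.639 and 19.1% ± 0.434 (SD, n = 3). The control and ethanol ranges overlapped in every family but Kcnb, whose highest control share was 4.48% and lowest ethanol share 4.52%. No test of the shares was run. In bulk tissue, fewer cells of a type and less RNA per cell cannot be told apart.

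**Figure D2:**
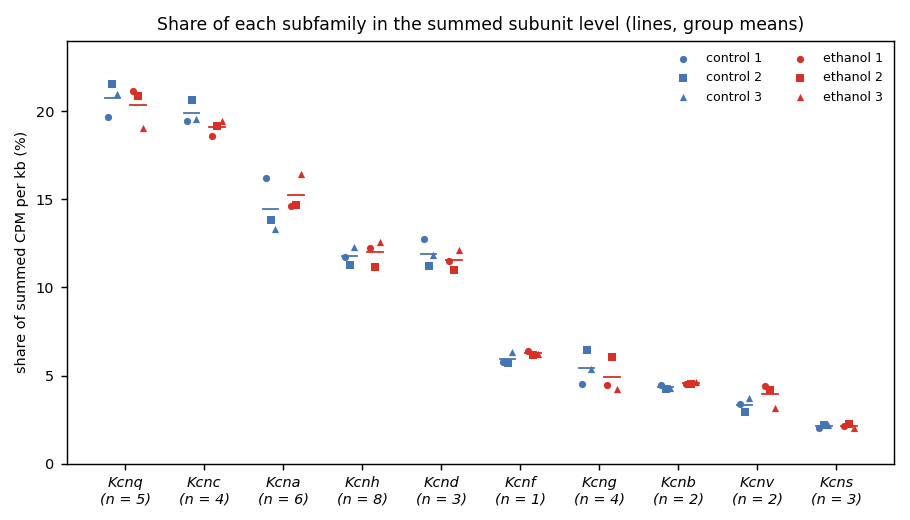
Share of each family in the summed CPM per kb of the 38 subunits (percent), one point per library, with lines at the group means and the number of genes under each name. The control and ethanol ranges overlap in every family but Kcnb, whose highest control share is 4.48% and lowest ethanol share 4.52%. Kcnq lies between 19.0% and 21.6% and Kcnc between 18.6% and 20.6%.

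No subunit was called between ethanol and control at the study's threshold. With the quasi-likelihood test of edgeR and a Benjamini-Hochberg adjusted p below 0.2, 0 of 38 subunits were called, and the smallest adjusted p among them was 1.00. The background was 0.0%, with 0 of 18141 genes called. The paper reported changed genes at this threshold in these libraries, by a test not given in the sources used here. The 0 is therefore the outcome of edgeR's test and not that of the study. It does not set the subunits apart from other genes. At an unadjusted p below 0.05, 753 genes and 2 subunits passed. The 2 subunits, Kcnq3 and Kcnh7, were both higher in ethanol, where the background was 1.57%, and 0 were lower, where it was 2.58%. DESeq2 called 81 genes, among them 0 subunits. It gave 1 subunit, Kcnq3, an unadjusted p below 0.05, against 2.41% of all genes. The 3 ethanol values lay wholly above the control values for 2 subunits, Kcnb2 and Kcnh7, against a background of 3.65%, and wholly below for 0, against 5.19%.

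The sizes of the differences were small. Of the 38 log2 fold changes (ethanol over control), 31 were under 0.2 in size, as were 14855 of those of the 18141 genes tested. Those of the subunits ran from -0.55 for Kcnq1 to 0.44 for Kcnh5. The median was 0.07, against 0.01 over all genes tested, and 30 of the 38 were above 0, against 52.6% of all genes. With libraries scaled by total reads alone, 24 were above 0, and the medians were 0.04 for the subunits and -0.02 for all genes. The subunit median also moved with single libraries, to 0.02 without control 3, 0.03 without control 1, 0.14 without control 2 and 0.13 without ethanol 3, and the number above 0 ran from 21 without ethanol 2 to 34 without control 2. The 95% interval of the fold change lay within 0.5 of 0 on the log2 scale for 23 of the 38 subunits and within 1 for 36. Over the 18141 genes tested, these numbers were 12148 and 16239, so narrow intervals were not particular to the subunits.

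**Figure D3:**
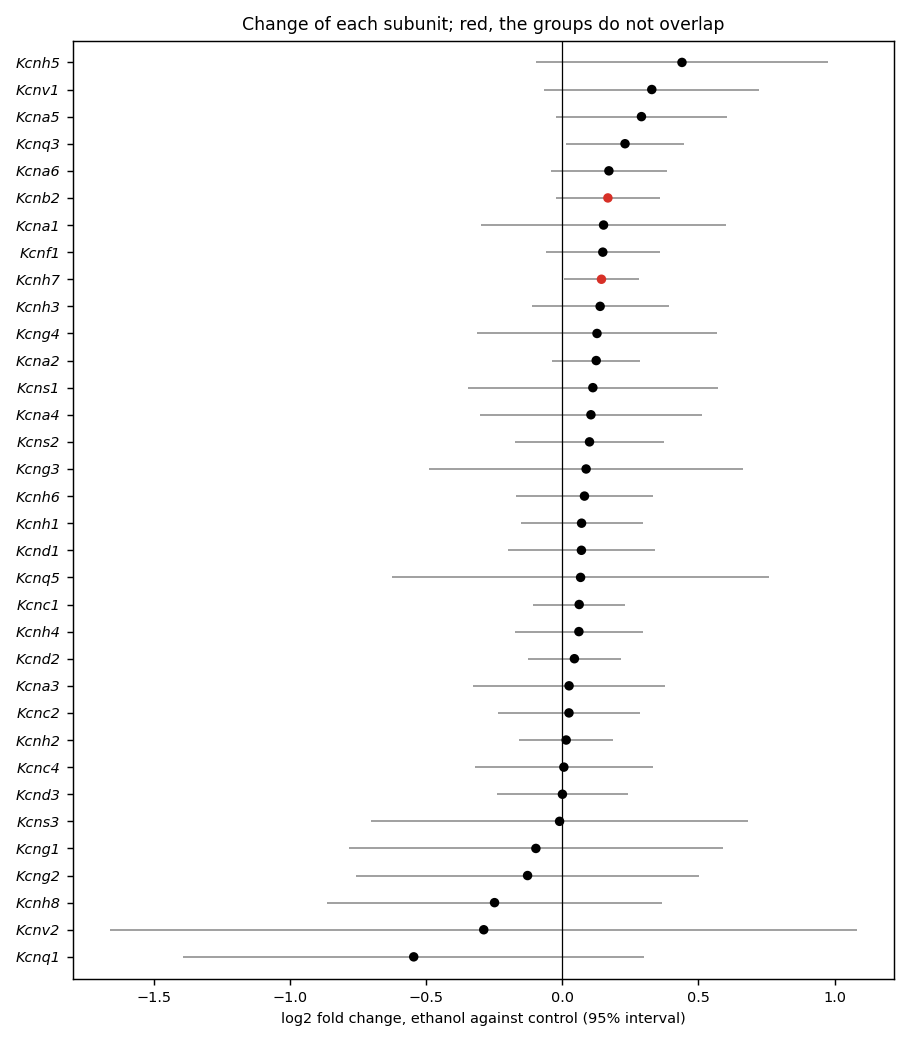
Log2 fold change of each of the 34 subunits in ethanol against control libraries, with the 95% interval of edgeR's quasi-likelihood fit as grey bars and red points where the groups did not overlap. The points run from -0.55 for Kcnq1 to 0.44 for Kcnh5, and the intervals of all but Kcnq3 and Kcnh7 include 0.

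In the M-type Kcnq family, Kcnq3 measured 58.4, 62.8 and 55.0 CPM in control and 75.5, 71.2 and 60.1 CPM in ethanol libraries. Ethanol 1 and ethanol 2 were above every control, and ethanol 3 lay between control values. The log2 fold change was 0.23 ± 0.09 (SE), with an interval of 0.01 to 0.45 and an unadjusted p of 0.0403 in edgeR's test, which gave an adjusted p of 1.00. Kcnq5, a further M-type subunit that was picked after its values were seen, had 29.4, 58.7 and 36.1 CPM in control and 41.3, 58.8 and 30.1 CPM in ethanol libraries. The highest library of each group exceeded the lowest by far more than the groups differed (log2 fold change 0.07 ± 0.30).

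Kcnq1, which works in epithelia and heart muscle, was also picked after its values were seen. It had 0.428, 0.662 and 0.552 CPM in control libraries, which are 28, 47 and 35 counts. The ethanol libraries gave 0.296, 0.233 and 0.589 CPM, from 19, 15 and 41 counts. Ethanol 1 and ethanol 2 were the lowest and ethanol 3 lay among the controls. The log2 fold change was -0.55 ± 0.36, with an interval of -1.39 to 0.30, and it was -0.30 without ethanol 2 and -1.05 without ethanol 3. Kcne2, the auxiliary subunit with which Kcnq1 is known to pair in choroid plexus epithelium, followed the same course, at 5.97, 10.4 and 7.60 CPM in control and 2.07, 1.97 and 5.31 CPM in ethanol libraries. All ethanol values of Kcne2 lay below the controls, and its log2 fold change was -1.35 ± 0.39, with an unadjusted p of 0.00938 in edgeR's test and an adjusted p of 1.00. Choroid plexus markers moved with both genes. Their summed level was 528, 1144 and 904 CPM in control and 13.2, 14.2 and 490 CPM in ethanol libraries. Of the 10 markers 9 could be tested, and all 9 had a log2 fold change below 0 (median -1.85). An unadjusted p below 0.05 by edgeR was found for 5, and 2.58% of all genes tested were lower at that level. Ttr, the most abundant, ran from 462 to 996 CPM in control and from 4.34 to 425 CPM in ethanol libraries, and Otx2 had no count in 5 of 6 libraries. The part of these cells in the values of Kcnq1 and Kcne2 was not tested.

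Among the Kcnh genes, which comprise the eag, erg and elk channels, Kcnh7 was the subunit with the most even controls. This erg channel measured 43.9, 43.1 and 43.2 CPM in control and 50.6, 47.4 and 45.9 CPM in ethanol libraries. Every ethanol value was above every control value, by a small margin. Its log2 fold change was 0.14 ± 0.06, with an interval of 0.01 to 0.28 and an unadjusted p of 0.0416 in edgeR's test, and the adjusted p was 1.00. Kcnh5, an eag channel, had 3.85, 3.06 and 2.52 CPM in control and 4.21, 3.14 and 5.44 CPM in ethanol libraries. Its groups overlapped, because ethanol 2 lay inside the control range (log2 fold change 0.44 ± 0.23, or 0.22 without ethanol 3). Kcnh3, an elk channel of the forebrain and the most abundant member of the family per kb, measured 79.0, 91.9 and 92.1 CPM in control and 103, 105 and 81.7 CPM in ethanol libraries. Ethanol 3 fell within the controls and the other two above them, for a log2 fold change of 0.14 ± 0.11. Kcnh1 and Kcnh2, the founding eag and erg channels, had log2 fold changes of 0.07 and 0.01, Kcnh4 0.06, Kcnh6 0.08 and the sparse Kcnh8 -0.25.

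Genes of the Kcnb family encode the somatic and proximal dendritic delayed rectifier. Kcnb2 measured 13.8, 13.9 and 13.5 CPM in control and 16.6, 15.5 and 14.1 CPM in ethanol libraries. The groups did not overlap, though ethanol 3 was only just above the controls, and the log2 fold change was 0.17 ± 0.08 with an interval of -0.02 to 0.36.

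The silent subunits differed in how far they varied among libraries, and none of them passed the test. Kcnv1 measured 28.9, 29.9 and 32.7 CPM in control and 43.7, 43.9 and 27.4 CPM in ethanol libraries. Ethanol 1 and ethanol 2 were well above the controls, while ethanol 3 was the lowest of the 6, and the log2 fold change was 0.33 ± 0.17 with an interval of -0.07 to 0.72. Kcnf1 read 58.0, 67.7 and 65.1 CPM in control and 73.9, 75.2 and 62.5 CPM in ethanol libraries, with ethanol 3 within the controls (log2 fold change 0.15 ± 0.09). Kcns2 had 7.50, 9.84 and 8.33 CPM in control and 9.43, 9.45 and 8.65 CPM in ethanol libraries, all within the control range, for a log2 fold change of 0.10 ± 0.12. Kcns1, Kcng3 and Kcng4 had log2 fold changes of 0.11, 0.09 and 0.13. Kcnv2, known from photoreceptors, had 8 to 43 counts per library and a log2 fold change of -0.29 ± 0.59, which is too sparse to show any but a very large difference.

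Kcng1 varied 2.16-fold among libraries, at 45.0, 84.8 and 58.0 CPM in control and 54.9, 81.7 and 39.2 CPM in ethanol libraries. Control 2 and ethanol 2 were the highest and control 1 and ethanol 3 the lowest, and the groups overlapped over nearly their whole range (log2 fold change -0.10 ± 0.30). Kcng2, picked after its values were seen, followed the same course with 21.9, 40.0 and 28.9 CPM in control and 25.7, 37.8 and 19.7 CPM in ethanol libraries. Its log2 fold change was -0.13 ± 0.27. Kcns3 had the same highest and lowest pairs, at 5.19, 6.25 and 5.39 CPM in control and 5.38, 8.19 and 3.17 CPM in ethanol libraries. Its controls varied little, and control 1 was only just below ethanol 1 and control 3. Kcng4 did not have these pairs, with its lowest value in ethanol 1 (9.71 CPM) and its highest in ethanol 3 (17.2 CPM). Control 1 and ethanol 3 were the lowest pair for 13 of the 38 subunits (34.2%) and for 10.7% of all genes tested, and control 2 and ethanol 2 the highest pair for 13 (34.2%) and for 11.98%. Both held for 8 subunits (21.1%) and for 4.21% of all genes. Among these 8 were Kcnc4, Kcnd3, Kcng1, Kcng2, Kcnq5 and Kcns3, and the pairs of libraries were chosen after these values were seen. Cortical-type glutamatergic markers had the same highest and lowest pairs, though not the same order throughout. They summed to 587, 982 and 750 CPM in control and 885, 1112 and 617 CPM in ethanol libraries. Oligodendrocyte markers were highest in control 1 and ethanol 3 (8379 and 9727 CPM), as were striatal-type GABA neuron markers (257 and 333 CPM). The striatal-type markers were lowest in control 2 and ethanol 2 (174 and 193 CPM). Whether the makeup of the tissue set these subunit levels was not tested.

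**Figure D4:**
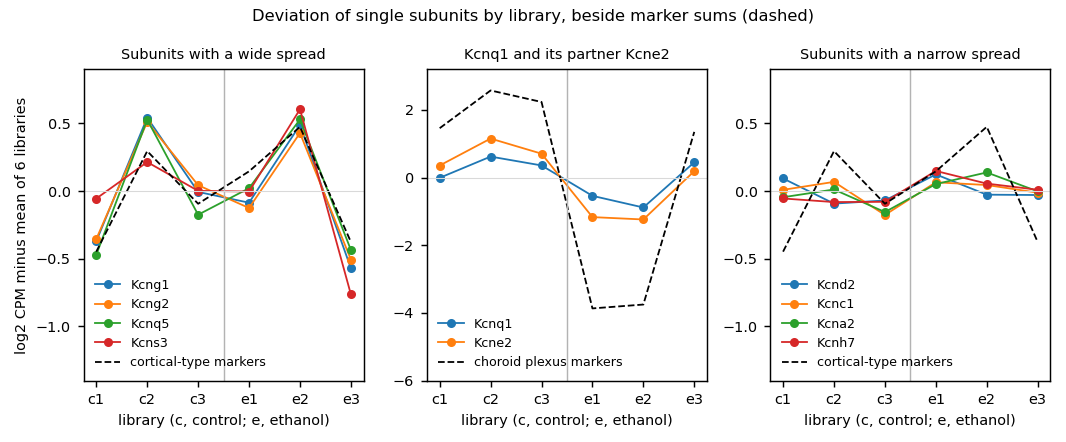
Deviation of single genes and of summed marker levels (dashed) from their mean over the 6 libraries, as log2 CPM, with control libraries left and ethanol libraries right of the grey line. Kcng1, Kcng2, Kcnq5 and Kcns3 peak in control 2 and ethanol 2 with the cortical-type markers, Kcnq1 and Kcne2 are low in ethanol 1 and ethanol 2 with the choroid plexus markers, and Kcnd2, Kcnc1, Kcna2 and Kcnh7 vary less. Other subunits with a wide spread, such as Kcng4 and Kcnh5, were highest in ethanol 3 instead and are not drawn.

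Kcna subunits form low-threshold channels of axons and terminals. Kcna5 had 7.79, 7.87 and 6.50 CPM in control and 10.2, 7.60 and 9.32 CPM in ethanol libraries. Ethanol 2 lay within the controls and the log2 fold change was 0.29 ± 0.14, with an interval of -0.02 to 0.61. Kcna6 measured 141, 114 and 119 CPM in control and 138, 134 and 149.6 CPM in ethanol libraries, where control 1 lay among the ethanol values (log2 fold change 0.17 ± 0.09). Kcna2, the axonal subunit with the highest count of the family, had 176, 183 and 163 CPM in control and 188, 200.1 and 182 CPM in ethanol libraries. Control 2 slightly exceeded ethanol 3, and the log2 fold change was 0.12 ± 0.07. Kcna1, Kcna3 and Kcna4 had log2 fold changes of 0.15, 0.03 and 0.11, each with an interval that spanned 0.

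Kcnc subunits open and close fast and allow high firing rates, and Kcnd subunits carry the A-type current of dendrites. Kcnc4 measured 70.2, 99.0 and 84.3 CPM in control and 86.0, 96.1 and 72.6 CPM in ethanol libraries, highest in control 2 and ethanol 2 and lowest in control 1 and ethanol 3 (log2 fold change 0.01 ± 0.14). Its groups overlapped. Kcnd2 was the steadiest of the 38, with 102, 89.6 and 91.0 CPM in control and 104, 93.8 and 93.6 CPM in ethanol libraries, 1.16-fold from lowest to highest. Its log2 fold change was 0.04 ± 0.07, with an interval of -0.13 to 0.22. Kcnd3 stood at 131, 158 and 133 CPM in control and 136, 158 and 127 CPM in ethanol libraries, a log2 fold change of 0.00 ± 0.10 with an interval of -0.24 to 0.24. Kcnc1, Kcnc2 and Kcnd1 had log2 fold changes of 0.06, 0.02 and 0.07.

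Auxiliary subunits assemble with the pores and tune their trafficking and gating. Of 16 genes on this list 13 could be tested, and 0 had an adjusted p below 0.2 in edgeR's test. At an unadjusted p below 0.05, 0 were higher and 1 (Kcne2) was lower, against 1.57% and 2.58% of all genes. For 2 of the 13, Kcne2 among them, every ethanol value lay below every control value, against 5.19% of all genes. For 0 of them every ethanol value lay above, against 3.65%. The median log2 fold change was 0.08. Kcnab2, the beta subunit of Kcna channels, was the most abundant at a mean of 69.1 CPM per kb. Its values of 371, 432 and 394 CPM in control and 412, 462 and 388 CPM in ethanol libraries overlapped (log2 fold change 0.08 ± 0.09). Dpp6, a transmembrane partner of Kcnd channels, stood at 43.1 CPM per kb, with 379, 369 and 339 CPM in control against 435, 402 and 375 CPM in ethanol libraries. Ethanol 3 lay below control 1, and the log2 fold change was 0.16 ± 0.08. Of 12 scaffold, adhesion and membrane-contact partners, all 12 were tested, 0 had an adjusted p below 0.2 and 0 an unadjusted p below 0.05 by edgeR, and the median log2 fold change was 0.06. Dlg4, the postsynaptic scaffold that binds Kcna tails, was the most abundant at 163 CPM per kb and had a log2 fold change of 0.04 ± 0.08. Vapa, the contact-site protein that binds Kcnb channels, stood at 106 CPM per kb with a log2 fold change of 0.07 ± 0.07, and Adam22, a receptor of the Lgi1 complex, had 0.10 ± 0.09.

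The number of subunits that passed depended on the library left out. Without ethanol 3, edgeR's quasi-likelihood test gave 9 subunits an unadjusted p below 0.05, 8 higher (among them Kcna4, Kcnb2, Kcnf1, Kcnh3, Kcnh7, Kcnq3 and Kcnv1) and 1 lower (Kcnq1), where 8.87% of all genes passed. Kcnv1 then had a log2 fold change of 0.52 and an adjusted p of 0.102 and was 1 of 83 genes called. Over its other alternatives, the adjusted p of Kcnv1 was 0.972 or higher. Without control 3, 0 subunits had an unadjusted p below 0.05 in edgeR's test, against 3.1% of all genes, and without ethanol 1 there was 1 (Kcnv2, lower), against 3.57%. Without control 2 there were 3, against 3.75%. Without control 1 (Kcna6 and Kcnh5, against 3.91%) and without ethanol 2 (Kcna5 and Kcnh5, against 3.16%) there were 2, and Kcnq3 and Kcnh7 were not among them. Of the auxiliary subunits and partners, 8 had such a p without ethanol 3, 6 higher and 2 lower, where 8.87% of all genes passed. There were 3 without control 1 (against 3.91%), 2 without ethanol 1 (3.57%) and 2 without ethanol 2 (3.16%). Each of these counts included a gene that the filter of the main fit had left out. With fewer libraries to separate, the groups of 12 subunits did not overlap without ethanol 3, where 27.2% of all genes did not. The number was 7 without control 2 (20.3% of all genes), 5 without control 1 (17.1%), 4 without ethanol 2 (14.3%), 3 without ethanol 1 (16.1%) and 2 without control 3 (15.4%).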

How the data were processed

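Strand-specific mRNA libraries of the amygdala were sequenced from a single end (100 nt, 3 lanes). Counts were deposited by the authors as the whole number of reads per gene that featureCounts (Subread 1.6.3) assigned to exons with strand setting 2, per the file headers. The submitters' processing notes also name FastQC 0.11.8, STAR 2.7.0f, the Rnor_6.0 build, R 3.6.2, edgeR and limma. No normalization or filter had been applied, and multiply aligned reads and reads over more than 1 gene were left out of the counts, which lowers paralogs and overlapping genes. Which test of these packages gave the study's own RNA-seq calls is not given in the sources used here.

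The analysis used edgeR 4.0.16 in R 4.3.3. After filterByExpr (minimum 10 counts, 15 in total), 18141 genes were scaled by TMM and compared by its quasi-likelihood F test. P-values were adjusted by Benjamini-Hochberg over all of them, at the study's threshold of 0.2. The script was tested on simulated data. The standard error is the log2 fold change divided by the square root of F. Intervals cover 95%. DESeq2 1.42.0, other scalings, no filter, a replicate block and leaving out each library were the alternatives.

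Statistics are printed for the 10 subunits with the smallest p, the 6 with the highest level and the most abundant of each family, and for 3 more chosen after their values were seen. Of the 38 subunits, 4 enter the counts and sums but are not reported one by one here. From the auxiliary and partner lists came the 2 genes with the smallest p and the 2 with the highest level. The members and lists were chosen with earlier results of these data known. Gene symbols came from a RefSeq gene table, which named 29322 of 38445 identifiers.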

Additional observations from a re-analysis of the deposited data

How the results depend on the processing

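Kcnv2 (8 to 43 counts per library) and Kcnq1 (15 to 47) were the sparsest subunits described, and no test of depth was run. The cause of each shift below was not tested. DESeq2 called 81 genes, and leaving out single libraries gave 0 to 83 genes and 0 to 1 subunits called. Subunits with an unadjusted p below 0.05 numbered 1 with library size alone, against 4.51% of all genes. They numbered 1 with no filter (3.65% of all genes) and 1 with DESeq2 (2.41%). With single libraries left out they numbered 0 to 9 (3.1% to 8.87%). Auxiliary subunits and partners with such a p numbered 2 with no filter (3.65% of all genes) and 2 with the replicate block (5.6%). With libraries left out they numbered 1 to 8 (3.1% to 8.87%). Subunits whose groups did not overlap numbered 2 to 12 with libraries left out, against 14.3% to 27.2% of all genes. Without division by exon length the shares were 17.3% for Kcna, 3.13% for Kcnb, 17.1% for Kcnc, 3.04% for Kcnf, 28.5% for Kcnq, 1.57% for Kcnv, 0.815% for Kcns and 12.6% for Kcnh. Some log2 fold changes near 0 turned. With library size alone they were -0.022 for Kcnc4 and -0.027 for Kcnd3, and for Kcnd3 they were -0.0021 with RLE scaling and -0.0020 with DESeq2. With libraries left out they ran from -0.12 to 0.14 for Kcnc4, -0.0069 to 0.10 for Kcnd2, -0.090 to 0.094 for Kcnd3, -0.41 to 0.19 for Kcng1, -0.41 to 0.13 for Kcng2 and -0.21 to 0.41 for Kcnq5. The other 12 named subunits kept their direction under every alternative run.

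The replicate number pairs no animals. Deviations of same-numbered libraries from their group means, over 14241 genes, correlated by 0.0264, 0.388 and 0.211, and control 1 correlated best with ethanol 3 (0.305), so not every library was closest to its own number. With the replicate block in the edgeR fit, 0 subunits and 0 genes were called. In that fit 3 subunits had an unadjusted p below 0.05, against 5.6% of all genes.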
